A study of Homo sapiens with 36 samples.

Results

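The APOBEC3 family comprises the 7 human cytidine deaminase genes APOBEC3A, APOBEC3B, APOBEC3C, APOBEC3D, APOBEC3F, APOBEC3G and APOBEC3H, here described by gene symbol as 7 of the 59041 genes to which transcripts of the files could be assigned. They were measured by total RNA sequencing in 36 libraries of 3 acute myeloid leukemia (AML) cell lines, HL60, MOLM13 and OCIAML3, with unstranded paired-end reads. For 24 h the cells received cytarabine at 0.1 µM, daunorubicin at a concentration of 0.02 µM, both drugs together (the combination) or the solvent DMSO, which gave 12 groups of 3 libraries, and the genotype of all lines is labelled as wild type. Each line stands for the leukemia of a single patient, HL60 and MOLM13 grew in another medium than OCIAML3, and the replicates are called biological without a statement of whether they came from separate days, so that every p-value measures the spread between these libraries. The family was chosen by its estimated counts with each treatment against DMSO in these same libraries, so levels and fold changes against DMSO are given below as a description, without p-values, and tests are given only for the comparisons between lines, between drugs and between transcripts. The labels and the study describe bulk cultures, in which fewer cells of one kind and less RNA per cell cannot be told apart.

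APOBEC3 enzymes convert cytosine to uracil in single-stranded DNA and are known as restriction factors against retroviruses and mobile elements, and APOBEC3A and APOBEC3B are also known as sources of mutations in tumors. Uracil in DNA is removed by uracil-DNA glycosylase (UNG) and repaired by the base excision pathway, which links the family to nucleotide metabolism. Cytarabine, an analog of cytidine, is built into DNA and stalls its synthesis, and daunorubicin intercalates and traps topoisomerase II, so both drugs are known to act on replicating DNA. In textbook descriptions HL60 cells lack functional p53 whereas MOLM13 and OCIAML3 cells carry the intact gene.

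The 7 genes lie head to tail on the plus strand of chromosome 22 (GRCh38, GENCODE 44) between bases 38952741 and 39104067. APOBEC3A occupies 38952741 to 38963184, APOBEC3B 38982347 to 38992804, APOBEC3C 39014257 to 39020352 and APOBEC3D 39021113 to 39033277. APOBEC3F follows at 39040604 to 39055972, APOBEC3G at 39077067 to 39087743 and APOBEC3H at 39097224 to 39104067. The genes arose by duplication and share long stretches of sequence, so that reads can be divided between them by the quantification, and a low level of one member beside a high level of its neighbor is uncertain for that reason. Of the 4 annotated APOBEC3A transcripts, 2 were among the transcripts quantified in the files.

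The libraries held 25067734 to 47322144 estimated counts each, and the replicate libraries of every group differed by more than sampling noise. Before the results, 2 OCIAML3 libraries have to be named, since they stood apart from the others of their label. The summed level of 14 genes known as targets of p53 was 1167, 1140 and 2033 CPM (counts scaled by library size) in the 3 OCIAML3 libraries labelled cytarabine, 3599, 3148 and 2081 CPM in those labelled daunorubicin, 3832, 3409 and 1065 CPM in those labelled combination, and 1124, 1114 and 1007 CPM in the DMSO libraries. The library labelled cytarabine replicate 3 thus lay above its group, and the library labelled combination replicate 3 lay within the range of the DMSO libraries. Whether these 2 libraries hold the treatments on their labels is in doubt and could not be settled from the sources used here, so every OCIAML3 value with all libraries rests on labels that may be wrong. The OCIAML3 results are therefore given with all libraries and without these 2.

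In untreated (DMSO) cells the 3 lines differed in which members they expressed. The genes were chosen by treatment against DMSO and not by this comparison between lines. Its DMSO libraries were the reference of that choice, however, so the p-values below are not independent of it. Of the 7 members, 6 passed the filter on low counts over the 9 DMSO libraries. A gene was called when the adjusted p (edgeR quasi-likelihood test, Benjamini-Hochberg over all 16532 genes) was under 0.05 and the log2 fold change exceeded 1 in size. By this rule 5 members differed between MOLM13 and HL60, where 30.6% of all genes did, 4 differed between OCIAML3 and HL60 (38.3% of all genes) and 4 between MOLM13 and OCIAML3 (30.9% of all genes). These counts are a description, because APOBEC3D and APOBEC3F in MOLM13 and APOBEC3F, APOBEC3G and APOBEC3H in HL60 held under 10 counts in each DMSO library, the minimum count of the filter, so that they passed it through the lines in which they were higher. No p-value is given for a comparison with such a line. Expressed per transcript length, as TPM (counts scaled by transcript length and by the library), the whole family summed to 52.4 ± 12.1 TPM in MOLM13, 86.8 ± 4.67 TPM in OCIAML3 and 70.9 ± 5.67 TPM in HL60 (SD, n = 3 each).

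APOBEC3B, which unlike most members resides in the nucleus, was the most abundant member of untreated HL60. It stood at 16.8, 27.2 and 14.7 CPM in MOLM13, at 6.41, 6.93 and 7.16 CPM in OCIAML3 and at 65.7, 53.7 and 51.4 CPM in HL60, with no overlap between lines. The log2 fold change was −1.49 ± 0.19 (SE) for MOLM13 over HL60 (adjusted p = 3.78e-05, edgeR), −2.99 ± 0.21 for OCIAML3 over HL60 (adjusted p = 1.28e-07) and 1.51 ± 0.20 for MOLM13 over OCIAML3 (adjusted p = 5.26e-05). As a share of the family's TPM, APOBEC3B made up 28.8% ± 2.98 in MOLM13, 7.51% ± 0.895 in OCIAML3 and 58.1% ± 0.581 in HL60.

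APOBEC3G, the main restriction factor against HIV that lacks Vif, showed the opposite order. It reached 2.40, 4.37 and 3.30 CPM in MOLM13, 20.9, 19.5 and 18.2 CPM in OCIAML3 and 0.339, 0.173 and 0 CPM in HL60, where the DMSO libraries held 9, 5 and 0 counts. Between the lines that passed the filter on their own, the log2 fold change was −2.55 ± 0.31 for MOLM13 over OCIAML3 (adjusted p = 2.10e-05, edgeR). The fitted values against HL60, 4.36 ± 0.48 for MOLM13 and 6.91 ± 0.45 for OCIAML3, rest on those 14 HL60 counts. APOBEC3F, a related enzyme with the same antiviral role, had 393 counts over the OCIAML3 libraries, 14 over the MOLM13 libraries and 1 over the HL60 libraries. Scaled for library size, its ratio to HL60 was 311 in OCIAML3 (exact 95% counting interval 55.6 to 12328) and 13.7 in MOLM13 (2.08 to 578), and the fitted log2 fold change for MOLM13 over OCIAML3 was −4.48 ± 0.43.

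APOBEC3H, a member whose human alleles are known to differ in stability, had no count in any of the 3 HL60 DMSO libraries. Taking 3 counts over the group as the floor, it was at least 34.5-fold higher in MOLM13 than in HL60 and at least 94.5-fold higher in OCIAML3 than in HL60. Between the lines that expressed it, it stood at 0.600, 1.97 and 1.07 CPM in MOLM13 and at 2.94, 3.61 and 3.37 CPM in OCIAML3, a log2 fold change of −1.46 ± 0.38 for MOLM13 over OCIAML3 (adjusted p = 0.00789, edgeR), which became −0.93 (adjusted p = 0.129) when transcript lengths were taken into account. APOBEC3D was low in all lines, and its difference between MOLM13 and HL60 (log2 fold change −1.54 ± 0.49) rested on 17 counts in MOLM13 and 50 counts in HL60. Its call was lost without the MOLM13 DMSO replicate 1 (−1.35) and without the HL60 DMSO replicate 1 (−1.12).

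APOBEC3C, a small enzyme with 1 deaminase domain, was present in all untreated lines. It ranged over 59.9 to 86.0 CPM in MOLM13, 85.4 to 96.8 CPM in OCIAML3 and 61.7 to 76.5 CPM in HL60. The differences passed the adjusted p but not the fold threshold for OCIAML3 over HL60 (log2 fold change 0.52 ± 0.13, adjusted p = 0.00451, edgeR) and for MOLM13 over OCIAML3 (−0.44 ± 0.13, adjusted p = 0.0127), and neither for MOLM13 over HL60 (0.08 ± 0.13, adjusted p = 0.650). APOBEC3A, which in the body is found mainly in monocytes and neutrophils, was practically absent from all groups, with 4 counts over all 36 libraries. Its highest library, a daunorubicin library of MOLM13, held 2 counts, and it was not fitted in any line.

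**Figure D1:**
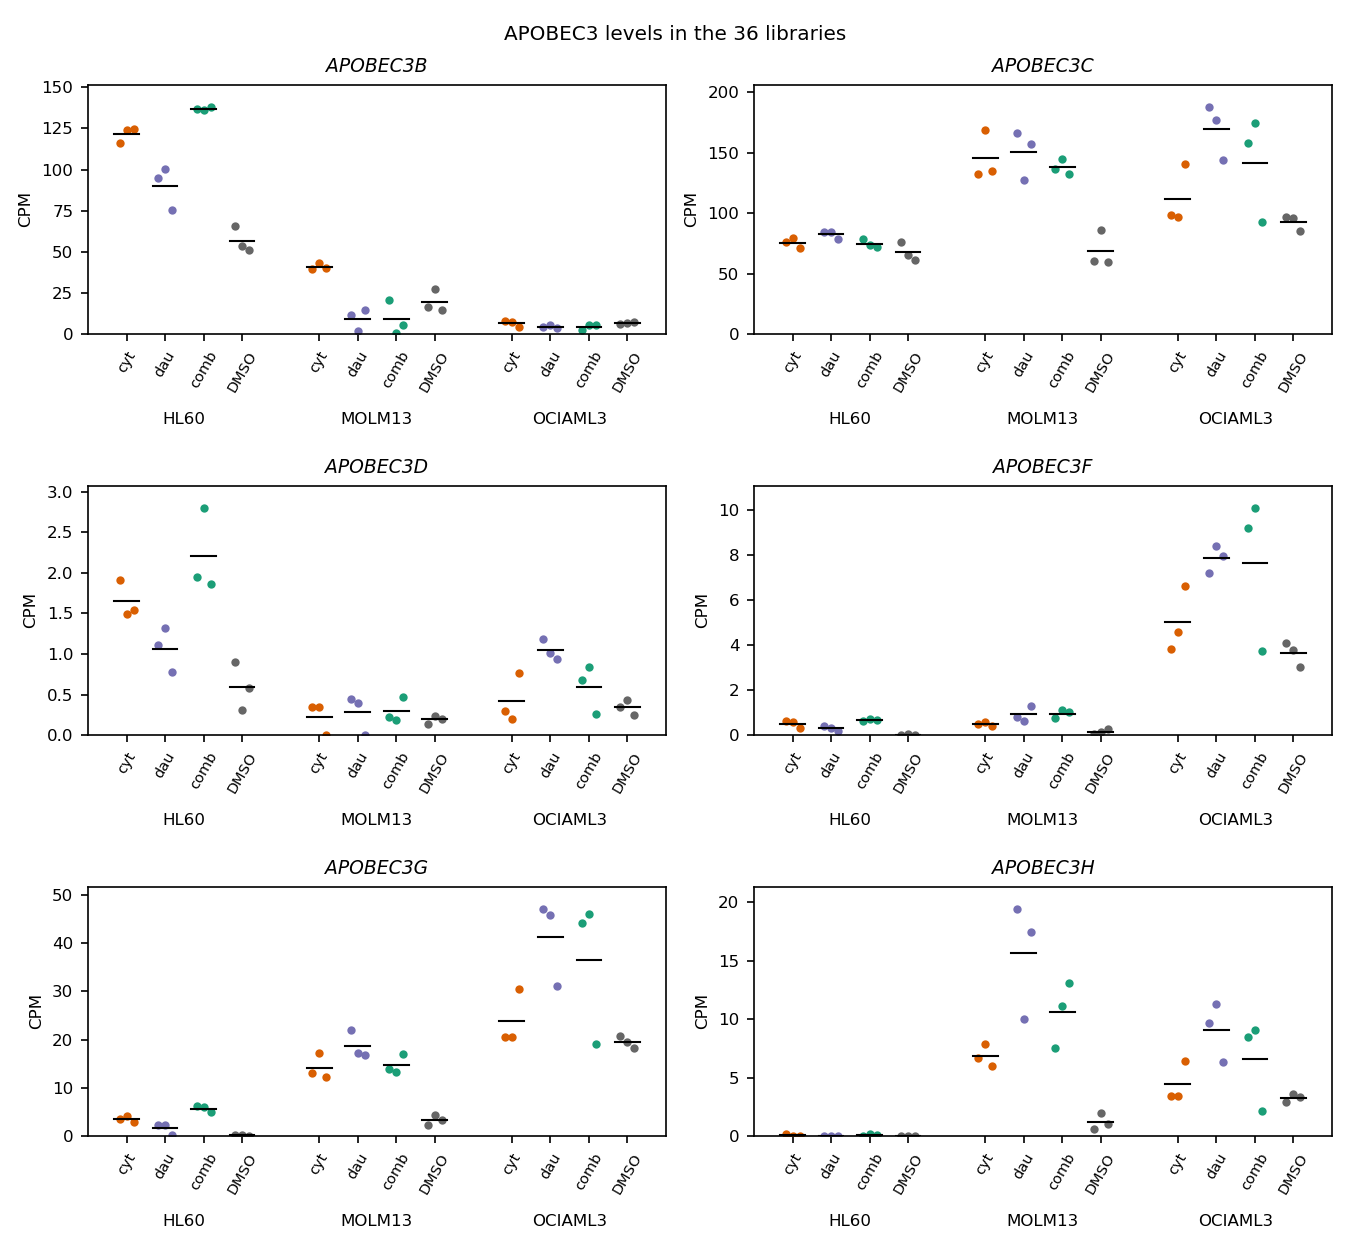
CPM (vertical axes, linear from 0, a separate scale for each gene) of the 6 detected APOBEC3 genes in each of the 36 libraries. Points are libraries in order of replicate number, black bars are means of 3, and cyt, dau and comb stand for cytarabine, daunorubicin and the combination. APOBEC3B was highest in HL60, whereas APOBEC3G and APOBEC3F were highest in OCIAML3 and APOBEC3H reached 19.4 CPM in a daunorubicin library of MOLM13. The last point of the cytarabine and of the combination group of OCIAML3 departs from the other points of its group in most panels.

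Each treatment was then set against DMSO within each line. The counts of members past the same thresholds against DMSO are set here beside the share of all genes past them, and nothing is read from these shares because these comparisons were in view when the genes were chosen. In HL60, where 5 members passed the filter, 4 were past the thresholds with cytarabine (16.9% of all genes), 2 with daunorubicin (7.3%) and 4 with the combination (23.3%). In MOLM13, where 6 members passed it, 4 were past the thresholds with each of the treatments, against 8.13% of all genes with cytarabine, 17% with daunorubicin and 17.4% for both drugs. In OCIAML3, 6 members passed the filter and none was past the thresholds with any treatment, and neither was any other gene (0%). At an unadjusted p under 0.05, OCIAML3 had 0 members with cytarabine, 6 with daunorubicin and 3 for both drugs. Of all 16650 genes, 255, 5086 and 3873 reached that p in the same order. DESeq2 counted 0, 3 and 0 members past the thresholds. For DESeq2 no share of all genes is given, and nothing is read from its counts. Without the 2 libraries that stood apart, OCIAML3 had 0 members past the thresholds with cytarabine (0% of all genes), 4 with daunorubicin (4.15%) and 4 with the combination (7.86%). All members past the thresholds were above DMSO.

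APOBEC3B lay above DMSO in every treated library of HL60 and was past the thresholds there with cytarabine and with the combination, whereas it was past them with no treatment in MOLM13 or OCIAML3. In HL60 it stood at 116, 124 and 125 CPM with cytarabine, at 94.8, 101 and 75.2 CPM with daunorubicin and at 137, 136 and 138 CPM with the combination, against 65.7, 53.7 and 51.4 CPM with DMSO. Each treated group lay above the DMSO libraries and the 4 groups did not overlap with each other. The log2 fold changes were 1.07 ± 0.12 (SE) with cytarabine, 0.67 ± 0.12 with daunorubicin and 1.26 ± 0.12 for both drugs. The first was 0.99, under the fold threshold, without the HL60 DMSO replicate 3, and it also lost its call with all 36 libraries in one fit (1.12), where 3 members in place of 4 were past the thresholds with cytarabine.

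In MOLM13, APOBEC3B was 39.4, 43.0 and 40.3 CPM with cytarabine, against 16.8, 27.2 and 14.7 CPM with DMSO, and again the groups did not overlap. With daunorubicin it was 11.5, 2.03 and 14.7 CPM, the highest of these just below the lowest DMSO library, and with the combination 20.7, 0.559 and 5.88 CPM. Replicate 2 was the lowest library of both daunorubicin-containing groups, with 51 and 15 counts, whereas replicate 2 was the highest of the DMSO and cytarabine groups. The spread within these groups entered the error of all MOLM13 comparisons, so that the log2 fold changes of 1.02 ± 0.81 with cytarabine, −1.05 ± 0.83 with daunorubicin and −1.12 ± 0.83 for both drugs were all short of the thresholds. Without the combination replicate 1, the last became −2.61 and passed them.

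Among the MOLM13 libraries with daunorubicin or the combination, those with the least APOBEC3B also had the fewest transcripts of the cell division program. The summed level of 14 genes known to be repressed by the DREAM complex in resting cells and activated by the B-MYB complex in dividing cells was 2013, 1815 and 2015 CPM with cytarabine, 1004, 480.5 and 1174 CPM with daunorubicin, 1384, 440.7 and 674.5 CPM with the combination, and 2125, 2121 and 2034 CPM with DMSO. Replicate 2 was the lowest of both daunorubicin-containing groups here too. Across groups the order differed. The combination replicate 1 had more APOBEC3B (20.7 CPM) than DMSO replicates 1 and 3 (16.8 and 14.7 CPM), at a lower sum. The cytarabine libraries had the most APOBEC3B, at sums below those with DMSO. In HL60, where APOBEC3B was above DMSO with each treatment, the sum was 2313 to 2420 CPM with cytarabine and 2128 to 2203 CPM with daunorubicin. It was 2265 to 2389 CPM with the combination and 2478 to 2622 CPM with DMSO. UNG, which excises the uracil that APOBEC3 enzymes leave in DNA, was 82.2, 111 and 88.8 CPM with cytarabine, 23.7, 17.8 and 31 CPM with daunorubicin, 48.7, 18.2 and 16.7 CPM with the combination, and 106, 100.1 and 104 CPM with DMSO. The part of cell division in the level of APOBEC3B was not tested.

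**Figure D2:**
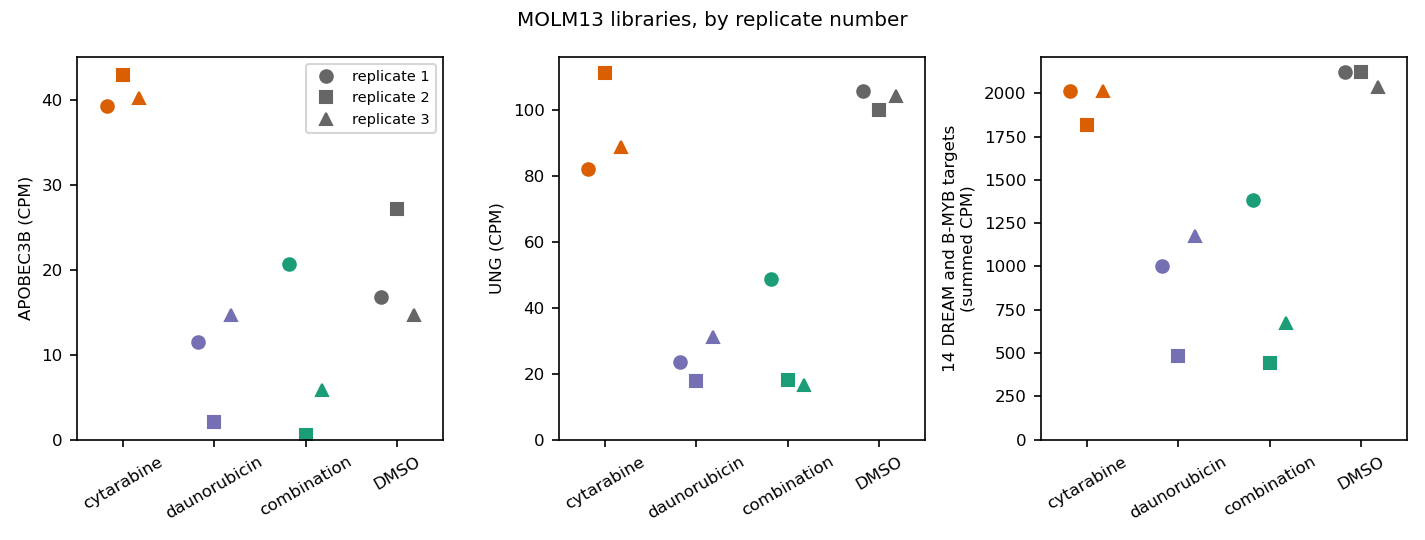
Levels in the 12 MOLM13 libraries of APOBEC3B (left, CPM), of UNG (middle, CPM) and of 14 DREAM and B-MYB target genes (right, summed CPM), all on linear axes from 0, with a symbol for each replicate number. With daunorubicin and with the combination, replicate 2 had the lowest APOBEC3B (2.03 and 0.559 CPM) and the lowest sum of the 14 genes (480.5 and 440.7 CPM).

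In OCIAML3, where APOBEC3B was low throughout, it was 7.77, 7.37 and 4.63 CPM with cytarabine, 4.32, 5.36 and 3.91 CPM with daunorubicin and 2.70, 5.53 and 5.74 CPM with the combination, against 6.41, 6.93 and 7.16 CPM with DMSO. All libraries with daunorubicin and with the combination lay below the DMSO libraries. Their log2 fold changes were −0.61 ± 0.28 with daunorubicin and −0.58 ± 0.27 with the combination, and that with cytarabine was −0.06 ± 0.27. Without the 2 libraries named above they were −0.61 ± 0.22, −0.76 ± 0.25 and 0.14 ± 0.24 in the same order, and none was past the fold threshold in either fit.

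APOBEC3C, the most abundant member of MOLM13 and OCIAML3, was under the fold threshold with every treatment in HL60 and was higher in every treated library of MOLM13. In HL60 it was 76.1, 79.5 and 71.4 CPM with cytarabine, 84.8, 84.6 and 78.7 CPM with daunorubicin and 78.4, 74.1 and 71.8 CPM with the combination, against 76.5, 65.2 and 61.7 CPM with DMSO. The cytarabine and combination libraries overlapped with the DMSO libraries, and the log2 fold changes were 0.13 ± 0.10, 0.29 ± 0.10 and 0.14 ± 0.10 with cytarabine, daunorubicin and the combination. In MOLM13 it was 132, 169 and 135 CPM with cytarabine, 166, 128 and 158 CPM with daunorubicin and 136, 145 and 133 CPM with the combination, against 60.7, 86.0 and 59.9 CPM with DMSO. Every treated MOLM13 library lay above every DMSO library. The log2 fold changes of 1.04 ± 0.15, 1.14 ± 0.15 and 1.00 ± 0.15 lie near the threshold of 1: the value for cytarabine was under it without the MOLM13 DMSO replicate 1 (0.95), the DMSO replicate 3 (0.95) or the cytarabine replicate 2 (0.92). The value for the combination was under it in 7 of 12 fits that left out a library, where these ranged over 0.91 to 1.00, and also with RLE normalization, without the filter on low counts, in DESeq2 and with all 36 libraries in one fit.

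In OCIAML3, APOBEC3C was 98.3, 97.3 and 141 CPM with cytarabine, 188, 177 and 144 CPM with daunorubicin and 158, 175 and 92.7 CPM with the combination, against 96.8, 95.8 and 85.4 CPM with DMSO. The daunorubicin libraries were all above the DMSO libraries, whereas the library labelled combination replicate 3 fell among them. The log2 fold changes were 0.27 ± 0.21, 0.85 ± 0.21 and 0.58 ± 0.21 with all libraries, and 0.07 ± 0.10, 0.85 ± 0.09 and 0.81 ± 0.10 without the 2 libraries, for cytarabine, daunorubicin and the combination.

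APOBEC3G was higher than DMSO in all treated groups of HL60 and MOLM13. In HL60 it was 3.6, 4.14 and 2.99 CPM with cytarabine, 2.36, 2.24 and 0.354 CPM with daunorubicin and 6.20, 6.06 and 4.99 CPM with the combination, against 0.339, 0.173 and 0 CPM with DMSO. The daunorubicin replicate 3, with 10 counts, came close to the highest DMSO library with 9 counts. Its log2 fold change was 4.37 ± 0.72 with cytarabine, 3.29 ± 0.73 with daunorubicin and 5.07 ± 0.73 for both drugs, and the gene passed the filter in HL60 only through the treated groups. In MOLM13 it was 13.1, 17.2 and 12.3 CPM with cytarabine, 22, 17.2 and 16.8 CPM with daunorubicin and 13.9, 13.3 and 17.0 CPM with the combination, against 2.40, 4.37 and 3.30 CPM with DMSO. The groups were far apart, with log2 fold changes of 2.04 ± 0.22, 2.48 ± 0.22 and 2.13 ± 0.22. In OCIAML3 it was 20.7, 20.5 and 30.5 CPM with cytarabine, 47, 45.9 and 31.1 CPM with daunorubicin and 44.2, 46.1 and 19.2 CPM with the combination, against 20.9, 19.5 and 18.2 CPM with DMSO. With all libraries the log2 fold changes were 0.29 ± 0.29, 1.06 ± 0.29 and 0.87 ± 0.29, and without the 2 libraries they were 0.07 ± 0.15, 1.06 ± 0.13 and 1.17 ± 0.14. The last 2 of these were past the thresholds.

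APOBEC3F was practically absent from untreated HL60. In HL60 the libraries held 19, 19 and 11 counts with cytarabine, 12, 11 and 6 counts with daunorubicin and 24, 29 and 22 counts with the combination, against 0, 1 and 0 counts with DMSO. It passed the filter there through the treated groups alone, and its fitted log2 fold changes of 5.02, 4.36 and 5.45 rest on that single DMSO count. The ratios of summed counts scaled for library size were 43.2 (exact 95% counting interval 7.41 to 1743) with cytarabine, 26.8 (4.44 to 1093) with daunorubicin and 58.2 (10.1 to 2328) for both drugs, and these intervals cover counting error only. In MOLM13 it was 0.515, 0.606 and 0.434 CPM with cytarabine, 0.823, 0.638 and 1.31 CPM with daunorubicin and 0.747, 1.12 and 1.02 CPM with the combination, against 0.0706, 0.136 and 0.275 CPM with DMSO. All treated libraries were above all DMSO libraries, with log2 fold changes of 1.63 ± 0.48, 2.50 ± 0.48 and 2.55 ± 0.47 in the order of the treatments. The MOLM13 DMSO libraries held 2, 4 and 8 counts, under the filter's minimum of 10. The gene thus passed the filter through the treated groups in MOLM13 too, and these values are a description. The value for cytarabine lost its call without the MOLM13 DMSO replicate 1 (1.28), the DMSO replicate 2 (1.51), the cytarabine replicate 1 (1.63) or the cytarabine replicate 2 (1.5), and also when transcript lengths were taken into account (2.54).

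OCIAML3 was the only line with more than 2 CPM of APOBEC3F in any library. It was 3.83, 4.60 and 6.65 CPM with cytarabine, 7.21, 8.42 and 7.96 CPM with daunorubicin and 9.20, 10.1 and 3.73 CPM with the combination, against 4.13, 3.80 and 3.02 CPM with DMSO. The daunorubicin libraries lay above the DMSO libraries and the combination libraries did so apart from replicate 3. Log2 fold changes were 0.46 ± 0.32, 1.09 ± 0.32 and 1.04 ± 0.32 with all libraries, and 0.20 ± 0.16, 1.09 ± 0.14 and 1.36 ± 0.15 without the 2 libraries.

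APOBEC3D, which has 2 deaminase domains like APOBEC3F and APOBEC3G, was scarce. In HL60 it was 1.92, 1.49 and 1.54 CPM with cytarabine, 1.11, 1.32 and 0.778 CPM with daunorubicin and 1.95, 2.80 and 1.86 CPM with the combination, against 0.903, 0.311 and 0.578 CPM with DMSO. The cytarabine and combination libraries lay above the DMSO libraries and the daunorubicin libraries overlapped with them. The log2 fold changes were 1.44 ± 0.38, 0.85 ± 0.38 and 1.88 ± 0.38. In MOLM13 no library exceeded 13 counts, and 2 treated libraries held none. In OCIAML3 the libraries held 8, 7 and 27 counts with cytarabine, 35, 37 and 28 counts with daunorubicin and 22, 35 and 12 counts with the combination, against 11, 19 and 8 counts with DMSO. Its log2 fold change with daunorubicin was 1.56 ± 0.51 with all OCIAML3 libraries and 1.56 ± 0.30 without the 2.

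APOBEC3H was the member with the largest change in MOLM13 and was almost undetected in HL60. In MOLM13 it was 6.73, 7.88 and 6.04 CPM with cytarabine, 19.4, 10.0 and 17.5 CPM with daunorubicin and 7.56, 11.1 and 13.1 CPM with the combination, against 0.600, 1.97 and 1.07 CPM with DMSO. The lowest treated library was above the highest DMSO library, and the log2 fold changes were 2.46 ± 0.38, 3.70 ± 0.39 and 3.13 ± 0.39. In OCIAML3 it was 3.42, 3.47 and 6.43 CPM with cytarabine, 9.66, 11.3 and 6.37 CPM with daunorubicin and 8.52, 9.09 and 2.16 CPM with the combination, against 2.94, 3.61 and 3.37 CPM with DMSO. The log2 fold changes were 0.42 ± 0.45, 1.44 ± 0.45 and 0.95 ± 0.45 with all libraries, and 0.05 ± 0.21, 1.44 ± 0.19 and 1.37 ± 0.20 without the 2 libraries, of which the last 2 were past the thresholds. In HL60 the libraries held 5, 2 and 1 counts with cytarabine, no count with daunorubicin, and 2, 8 and 3 counts with the combination, against no count with DMSO, and the gene did not pass the filter.

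The sequence before APOBEC3H is shown because this member had the largest fold changes against DMSO in MOLM13, and it was the only 1 of the 7 members found in the RefSeq promoter table (GRCh38.p14). The 250 bases before the RefSeq start occupy chr22:39096994-39097243 on the plus strand, and GENCODE places the start of the gene inside this window. Capitals mark the matches to the motifs searched on both strands.
APOBEC3H: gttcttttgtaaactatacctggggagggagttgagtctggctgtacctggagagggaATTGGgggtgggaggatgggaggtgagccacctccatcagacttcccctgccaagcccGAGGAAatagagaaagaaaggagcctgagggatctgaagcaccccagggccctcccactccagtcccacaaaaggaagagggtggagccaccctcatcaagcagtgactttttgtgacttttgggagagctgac
The first match, at base −192 from the start, is the CCAAT box on the minus strand, which 32% of the 35116 promoters of this length hold. The second, at base −134, is GAGGAA, the core bound by the myeloid factor PU.1, which 23.6% of the promoters hold. There was no match to the interferon-stimulated response element core (GAAA, any 2 bases, GAAA; in 3.02% of promoters), to the cell cycle genes homology region TTTGAA (13.3%), to the TATA box TATAAA (10.7%), to the GC box GGGCGG (42.6%) or to the p53 half-site (5.57%). The 2 matches did not overlap each other, and a match or its absence describes only these letters in this window.

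**Figure D3:**
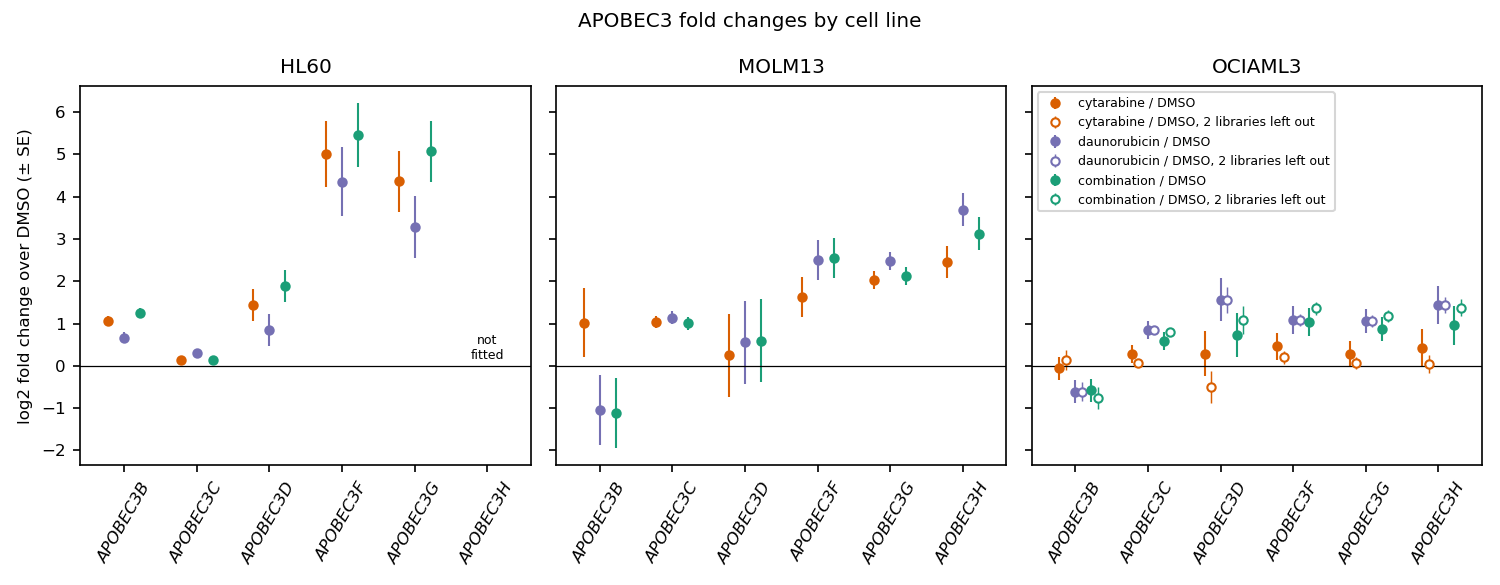
Log2 fold change over DMSO (vertical axis) of 6 APOBEC3 genes in order of their position on the chromosome, for each treatment in HL60, MOLM13 and OCIAML3, with bars of 1 SE. Open circles in the OCIAML3 panel leave out the libraries labelled cytarabine replicate 3 and combination replicate 3. APOBEC3B lies above 0 for all treatments in HL60 and below 0 for daunorubicin and the combination in the other lines. APOBEC3H was not fitted in HL60, and the HL60 values of APOBEC3F rest on 1 DMSO count.

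The makeup of the family was then read from the TPM of its members. The summed level in HL60 was 141 ± 7.77 TPM with cytarabine, 105 ± 14.6 TPM with daunorubicin, 158 ± 8.60 TPM with the combination and 70.9 ± 5.67 TPM with DMSO (SD, n = 3 each). APOBEC3B made up 70.7%, 63.4% and 72.4% of it with cytarabine, daunorubicin and the combination, and 58.1% with DMSO. In MOLM13 the sum was 126 ± 11.6 TPM with cytarabine, 116 ± 24.4 TPM with daunorubicin, 99.7 ± 3.55 TPM with the combination and 52.4 ± 12.1 TPM with DMSO. There APOBEC3H made up 9.31% with cytarabine, 22% with daunorubicin, 17.1% with the combination and 4.70% with DMSO, and APOBEC3B 26.2%, 5.72%, 6.79% and 28.8% in the same groups. In OCIAML3 the sum was 105 ± 23.0 TPM with cytarabine, 163 ± 21.0 TPM with daunorubicin, 141 ± 49.4 TPM with the combination and 86.8 ± 4.67 TPM with DMSO. APOBEC3C kept a share of 58.1% to 60.04% in all 4 OCIAML3 groups, and APOBEC3G one of 22.4% to 25.4%.

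**Figure D4:**
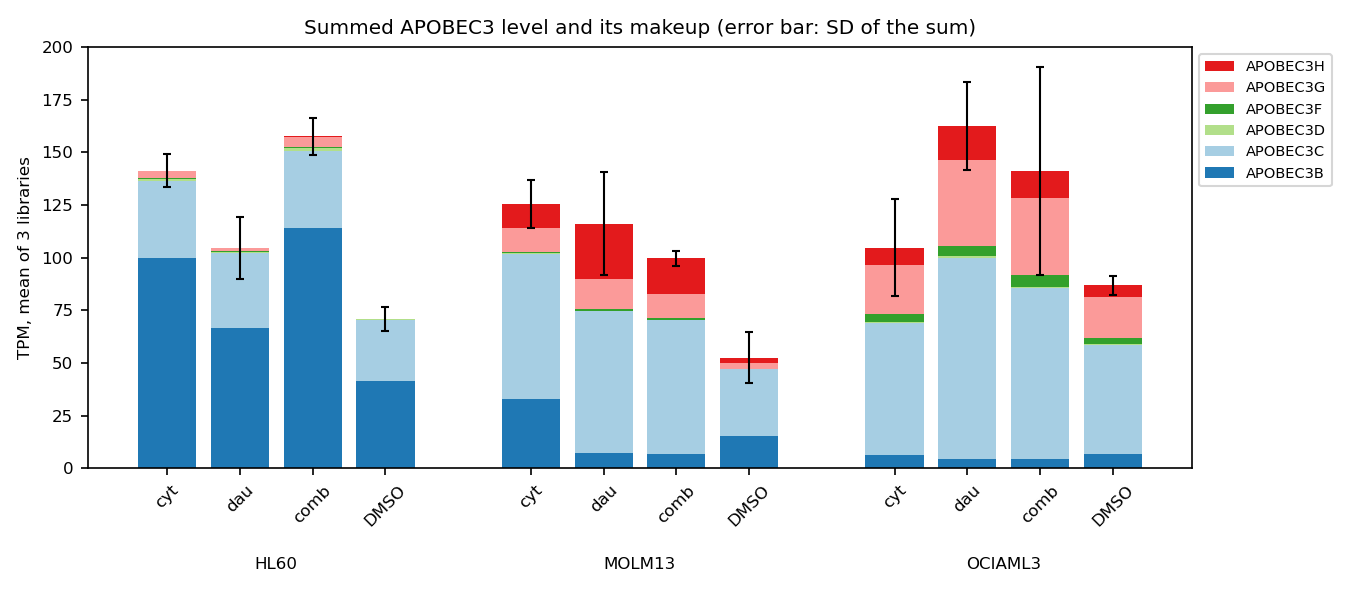
Summed TPM of 6 APOBEC3 genes (vertical axis, linear from 0), stacked by gene as the mean of 3 libraries for each of the 12 groups, with the SD of the sum as error bar. Cyt, dau and comb stand for cytarabine, daunorubicin and the combination. APOBEC3B makes up most of each HL60 bar (58.1% to 72.4%), and APOBEC3C 55.0% to 63.8% of each MOLM13 and OCIAML3 bar.

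Ranked over the 12 groups by mean CPM, APOBEC3B ran from the HL60 combination (137 CPM) over HL60 cytarabine (122 CPM), HL60 daunorubicin (90.2 CPM), HL60 DMSO (56.9 CPM) and MOLM13 cytarabine (40.9 CPM) to MOLM13 DMSO (19.6 CPM), and none of these neighbors overlapped. MOLM13 DMSO and the next group, MOLM13 daunorubicin (9.42 CPM), did not overlap either, although their closest libraries both rounded to 14.7 CPM. From MOLM13 daunorubicin down to OCIAML3 daunorubicin (4.53 CPM), all 5 pairs of neighbors overlapped. For APOBEC3C, 9 of the 11 pairs of neighboring groups overlapped, for APOBEC3D 9, for APOBEC3F and APOBEC3H 8 each, and for APOBEC3G 7. For APOBEC3F the 4 OCIAML3 groups held the top of the order, from daunorubicin (7.86 CPM) to DMSO (3.65 CPM), and were separated from all other groups. For APOBEC3G the MOLM13 groups with treatment (14.2 to 18.7 CPM) came just below OCIAML3 DMSO (19.5 CPM), whose libraries overlapped with those of MOLM13 daunorubicin.

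The drugs were next compared with each other within each line. These tests use the same treated libraries as the comparisons above and are not independent of them. In HL60 the combination was set against daunorubicin alone, where 9.44% of all genes were called. APOBEC3G (5.75 ± 0.663 against 1.65 ± 1.12 CPM, log2 fold change 1.78 ± 0.57, adjusted p = 0.0272, edgeR) and APOBEC3D (2.20 ± 0.515 against 1.07 ± 0.272 CPM, 1.03 ± 0.36, adjusted p = 0.0399) were called, higher in 3 of 3 libraries with the combination. APOBEC3B passed the adjusted p but not the fold threshold (0.59 ± 0.12, adjusted p = 0.00218). Both calls were lost without the HL60 combination replicate 1 (1.71 with adjusted p = 0.0602 for APOBEC3G, 1.1 with 0.0584 for APOBEC3D), the combination replicate 2 (1.73 with 0.0715, 0.81 with 0.162) or the daunorubicin replicate 3 (1.31 with 0.0595, 0.85 with 0.142), and that of APOBEC3D also without the daunorubicin replicate 1 (1.05 with 0.0807).

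For daunorubicin against cytarabine in HL60, no member was called (3.89% of all genes), although APOBEC3B was lower with daunorubicin at an adjusted p of 0.0366 (edgeR, log2 fold change −0.40 ± 0.12). APOBEC3G had 2.36, 2.24 and 0.354 CPM with daunorubicin and 3.6, 4.14 and 2.99 CPM with cytarabine, a log2 fold change of −1.07 ± 0.56 (adjusted p = 0.212). With the replicate number as a block (in HL60 all 18 pairs of same-numbered libraries deviated together, r = 0.28 to 0.56), it was −1.25 ± 0.44 (adjusted p = 0.0422) and was called. For the combination against cytarabine in HL60, neither a member nor any other gene (0%) was called in the fit without the block. At an unadjusted p under 0.05 there was 1 member for daunorubicin and 0 for the combination, each against cytarabine, and DESeq2 called 0 in both. Of all 15608 genes, 4920 and 1342 reached that p in the same order.

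In MOLM13, APOBEC3H was the only member called between drugs, higher with daunorubicin (15.7 ± 4.95 CPM) than with cytarabine (6.88 ± 0.931 CPM), with a log2 fold change of 1.24 ± 0.34 (adjusted p = 0.0220, edgeR), where 5.25% of all genes were called. The daunorubicin libraries lay above the cytarabine libraries in 3 of 3. The call was lost without any 1 of the 3 cytarabine libraries (replicate 1, 1.22 with adjusted p = 0.0653; replicate 2, 1.34 with 0.0507; replicate 3, 1.16 with 0.0752), without the daunorubicin replicate 1 (1.04 with 0.0854) and without the daunorubicin replicate 3 (1.12 with 0.0627). APOBEC3B was lower with daunorubicin than with cytarabine (−2.07 ± 0.84, adjusted p = 0.0918) and lower with the combination than with cytarabine (−2.14 ± 0.84, adjusted p = 0.0810), in 3 of 3 libraries each, without passing the threshold. The second of these passed it without the combination replicate 1 (−3.63, adjusted p = 0.00639), and the first without the combination replicate 1 (adjusted p = 0.0310) or the combination replicate 2 (adjusted p = 0.0244). No member was called in MOLM13 for the combination against cytarabine (5.52% of all genes) or for the combination against daunorubicin (0%). There, 2 and 0 members had an unadjusted p under 0.05, beside 6458 and 320 of all 16184 genes. DESeq2 called 0 members in both.

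In OCIAML3 no gene was called between drugs with all libraries (0%). At an unadjusted p under 0.05 there were 4 members for daunorubicin against cytarabine and 0 for the combination against either drug. Of all 16650 genes, 2484 reached that p for daunorubicin against cytarabine. For the combination, 1518 genes did against cytarabine and 358 against daunorubicin. DESeq2 called 0 members in each comparison. The 2 libraries were left out after their levels had been seen, so the values without them are a description and carry no p-value. Without them, daunorubicin was above cytarabine for APOBEC3H (1.39 ± 0.22) and APOBEC3D (2.06 ± 0.37), where 3.12% of all genes were called. The combination was above cytarabine for APOBEC3D (1.59 ± 0.39), APOBEC3F (1.16 ± 0.17), APOBEC3G (1.1 ± 0.16) and APOBEC3H (1.32 ± 0.23), where 6.73% were. For APOBEC3D the remaining cytarabine libraries held 8 and 7 counts, under the filter's minimum of 10. Beside them stood 35, 37 and 28 counts with daunorubicin and 22 and 35 counts with the combination. The combination and daunorubicin alone did not give a call in either fit (0%).

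The transcripts of each gene were then examined, since a change in a gene's sum can hide a change in its isoforms. APOBEC3B-201 held 89.0% to 96.0% of the APOBEC3B counts in the 12 groups, and APOBEC3C-201 held 98.6% to 99.7% of those of APOBEC3C. For groups with at least 60 counts, APOBEC3F-201 held 78% to 90.4% of its gene and APOBEC3F-202 6.76% to 22%, and APOBEC3G-201 held 68.8% to 78.7%, with APOBEC3G-207, annotated with a retained intron, at 9.40% to 17.8%. APOBEC3D was divided between APOBEC3D-201 (67.7% to 83.9%) and APOBEC3D-202 (10.4% to 26.1%). APOBEC3H was divided between APOBEC3H-204 (47% to 64.8%) and APOBEC3H-201 (23.7% to 40.8%). Over the 9 comparisons with DMSO, 102 tests of transcript usage were made (edgeR). The share of all transcripts called was 0.859% with cytarabine, 0.505% with daunorubicin and 1.3% for both drugs in HL60, 0.416%, 0.727% and 0.76% in MOLM13, and 0.334%, 0.381% and 0.339% in OCIAML3, whereas 0 member transcripts were called and the lowest adjusted p was 0.402. The 3 with an unadjusted p under 0.05 were all APOBEC3H-202 in MOLM13, a minor transcript with at most 8.25% of the counts. Of all 59872 transcripts tested in MOLM13, 2415, 3288 and 3235 had such a p with cytarabine, daunorubicin and the combination. No other tool was run on usage.

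The genes most like each member were sought over the 36 libraries after removing the mean of each line, among 14072 protein-coding genes. The coefficients describe libraries that share lines and controls and carry no test. APOBEC3B was most like a protein-coding gene without symbol (ENSG00000259316, Pearson r = 0.97), TK1 (0.97) and PCLAF (0.97), of which TK1 is the thymidine kinase of dividing cells and PCLAF binds the replication clamp PCNA. TK1 had 52.8, 11.1 and 61.4 CPM with daunorubicin and 90.6, 7.61 and 24.8 CPM with the combination in MOLM13, against 110, 140 and 106 CPM with DMSO, so replicate 2 was the lowest treated library for this gene too. In HL60 it had 347, 330 and 361 CPM with cytarabine, against 154, 124 and 133 CPM with DMSO.

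APOBEC3C was most like FDXR (0.95), ASTN2 (0.94) and TNFRSF10C (0.94), of which FDXR, the ferredoxin reductase of mitochondria, is a known target of p53. APOBEC3F was most like UBA7 (0.96), TRIM22 (0.95) and NRBP2 (0.95), of which UBA7 activates the ubiquitin-like protein ISG15 and TRIM22 is an antiviral factor, both known to be induced by interferon. APOBEC3G was most like IQSEC2 (0.97), NATD1 (0.97) and TLR6 (0.96), and APOBEC3D, with few counts, was most like TMTC2 (0.74), BATF2 (0.70) and ARL11 (0.68). Between members, APOBEC3F and APOBEC3G were closest (0.90), APOBEC3C stood at 0.63 to APOBEC3F and 0.55 to APOBEC3G, and APOBEC3B stood between −0.15 and 0.11 to the other members. Leaving out the 2 OCIAML3 libraries moved these coefficients little, for example to 0.76 for APOBEC3D with TMTC2. APOBEC3H was left out here, since it did not pass the filter in HL60.

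Genes that act on the product of the APOBEC3 enzymes were listed to set the family in its pathway. Of 12 genes of uracil removal and base excision repair, all of which passed the filter, 0 were called up and 2 down in MOLM13 with daunorubicin, and 0 up and 3 down with the combination. Of all 16184 genes tested, 17% and 17.4% were called in either direction in these comparisons, and 924 and 908 genes were down. The counts of 2 and 3 are few and are a description, and nothing particular to the list is read from them. The median log2 fold changes of the 12 genes were −0.43 and −0.40, beside 0.07 over all genes tested in both comparisons. UNG fell to 24.1 ± 6.63 CPM with daunorubicin and to 27.9 ± 18.1 CPM with the combination, against 103 ± 2.97 CPM with DMSO (log2 fold changes −2.09 ± 0.35 and −1.90 ± 0.34). FEN1, the nuclease that trims repair flaps, fell to 30.8 ± 16.8 and 34.9 ± 32 CPM in the same groups, against 171 ± 6.79 CPM with DMSO. In HL60, where 16.9% of all genes were called with cytarabine and 23.3% with the combination, 1 of the 12 was down with cytarabine and 1 was up and 1 down with the combination: LIG3, a DNA ligase, was 58.1 ± 2.08 CPM with cytarabine and 53.9 ± 5.14 CPM with the combination, against 121 ± 7.52 CPM with DMSO, and XRCC1, its scaffold partner, was 85.2 ± 3.61 CPM with the combination, against 38.9 ± 1.89 CPM with DMSO. In OCIAML3, UNG and FEN1 were down with the combination when the 2 libraries were left out (log2 fold changes −1.17 ± 0.18 and −1.04 ± 0.16). Of all genes, 7.86% were called there. None of the 12 was called with all OCIAML3 libraries, and neither was any other gene.

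Of 8 enzymes of pyrimidine nucleosides, which include those that activate or inactivate cytarabine, 3 were up in HL60 with cytarabine (16.9% of all genes called) and 5 with the combination (23.3%), with median log2 fold changes of 0.83 and 1.14 beside 0.01 and 0.04 over all genes. Among them was CDA, the cytidine deaminase that inactivates cytarabine, at 0.926, 1.37 and 0.533 CPM with cytarabine and 1.07, 1.73 and 0.600 CPM with the combination, against 0, 0.0346 and 0.102 CPM with DMSO. With so little in DMSO, CDA passed the filter through the treated groups and stayed low in these, so its place in the counts is a description. In MOLM13, 1 enzyme was up with cytarabine (8.13% of all genes called), and 2 were up and 1 down with daunorubicin (17%) and with the combination (17.4%). DCK, the kinase that activates cytarabine, was there 37.7 ± 5.75 CPM with daunorubicin and 37.9 ± 9.60 CPM with the combination, against 77.9 ± 2.73 CPM with DMSO (log2 fold changes −1.04 ± 0.16 in each). SAMHD1, which hydrolyzes the active form of cytarabine, was 203 ± 19.9 CPM with daunorubicin, against 101 ± 4.27 CPM with DMSO (1.02 ± 0.10).

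Genes that flank the cluster on chromosome 22 were also examined. Of 8 such genes, 7 passed the filter in each line, and 3 were up and 1 down in HL60 with cytarabine (16.9% of all genes called) and with the combination (23.3%), 2 up with daunorubicin (7.3%), 1 up in MOLM13 with daunorubicin (17%), and none in the remaining comparisons with all libraries. Their median log2 fold change in HL60 was 0.80 with cytarabine, 0.34 with daunorubicin and 0.78 for both drugs, and in MOLM13 with daunorubicin it was 0.50, beside 0.01 to 0.07 over all genes. NPTXR, a neuronal pentraxin receptor, was 2.74, 3.86 and 3.28 CPM with cytarabine, 3.25, 4.57 and 2.16 CPM with daunorubicin and 3.61, 6.34 and 6.64 CPM with the combination in HL60, against 0.263, 0.622 and 0.204 CPM with DMSO. With so little in DMSO, NPTXR passed the filter through the treated groups, so its place in the counts is a description. CBX6, a polycomb protein, was lower at 69.6 ± 14.6 CPM with cytarabine and 59.3 ± 12.4 CPM with the combination, against 137 ± 19.3 CPM with DMSO. RPL3, a ribosomal protein gene of the same region, was 2569 ± 31.5 CPM with cytarabine, 3077 ± 109 CPM with daunorubicin and 2452 ± 226 CPM with the combination in HL60, against 2580.45 ± 141 CPM with DMSO, and was not called.

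Lists of genes of the interferon response, p53, NF-kB and cell division were counted in the same comparisons, and their part in the levels of the APOBEC3 genes was not tested. The share of all genes called was 16.9%, 7.3% and 23.3% in HL60 with cytarabine, daunorubicin and the combination, and 8.13%, 17% and 17.4% in MOLM13. Of 20 interferon response genes, 8, 6 and 10 were up in HL60 with cytarabine, daunorubicin and the combination, and 6, 7 and 9 in MOLM13, with none down, and their median log2 fold change ranged from 0.63 to 1.44 in HL60 and from 0.78 to 0.97 in MOLM13. Of 14 p53 targets, 4, 1 and 5 were up in HL60 and 10, 13 and 12 in MOLM13, in the same order of treatments, so that the count for daunorubicin in HL60 was at the background. Of 10 genes of the NF-kB pathway, 7, 3 and 7 were up in HL60 and 3 with each treatment in MOLM13. Of 14 DREAM and B-MYB targets, 1, 1 and 2 were down in HL60, and 0, 7 and 7 in MOLM13, with none up. The median over all genes tested lay between 0.01 and 0.07 in these comparisons. Without the 2 libraries, OCIAML3 had 6 interferon response genes and 9 p53 targets up with daunorubicin (4.15% of all genes called). With the combination it had 8 and 10 (7.86%). The 2 libraries were singled out by their p53 target levels, so these counts of p53 targets are a description.

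APOBEC3 genes are also highly expressed in lymphocytes and monocytes, so markers of these cells were read in the same libraries, with the same shares of all genes called as background. All 10 myeloid line markers reached 1 CPM in HL60 and MOLM13 and 8 did in OCIAML3. In HL60 their sum was lower with cytarabine (2042 to 2465 CPM) and the combination (1551 to 1818 CPM) than with DMSO (4413 to 5163 CPM). With daunorubicin it was 3716 to 5242 CPM. In MOLM13 it was 3881 to 4159, 3748 to 4804 and 3801 to 4493 CPM with cytarabine, daunorubicin and the combination, against 2484 to 3650 CPM with DMSO. In OCIAML3 it lay between 1864 and 2644 CPM in all libraries. Of 10 T cell markers, 5 passed the filter in HL60 and 4, 3 and 3 of them were up with cytarabine, daunorubicin and the combination, where CD3E averaged 0.802 CPM with cytarabine and 0.0230 CPM with DMSO, and CD3D and CD3G never exceeded 0.1 CPM. With so little in DMSO, CD3E passed the filter through the treated groups. Other markers low with DMSO can do so too, so all counts of markers up are a description. The summed level of the T cell markers, largely that of CD4, ranged over 215 to 334 CPM with cytarabine, 370 to 401 CPM with daunorubicin and 247 to 322 CPM with the combination in HL60, against 326 to 353 CPM with DMSO. In MOLM13, where 5 T cell markers passed the filter, 3, 3 and 1 were up and CD247 was down with daunorubicin and the combination, with summed levels of 369 to 416 CPM with cytarabine, 480 to 534 CPM with daunorubicin and 494 to 499 CPM with the combination, against 256 to 293 CPM with DMSO, while CD2, CD3G and LCK never exceeded 0.1 CPM. In OCIAML3, 7 of the 10 T cell markers never exceeded 0.1 CPM, among them all CD3 genes.

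Of 7 B cell markers, 4 passed the filter in HL60 and all 4 were up with each treatment, a count that is a description for the same reason. The sum of the B cell markers ranged over 14.2 to 15.2 CPM with cytarabine, 8.70 to 13.9 CPM with daunorubicin and 14.8 to 15.6 CPM with the combination, against 3.46 to 3.77 CPM with DMSO, and MS4A1 and BLK never exceeded 0.1 CPM. Of 10 monocyte and macrophage markers, 6 passed the filter in HL60 and 4, 3 and 4 of them were up. Their sum in HL60 ranged over 34.2 to 74.6 CPM with cytarabine, 19.2 to 41.5 CPM with daunorubicin and 58.8 to 111 CPM with the combination, against 10.5 to 17.0 CPM with DMSO. In MOLM13 the sum of these markers ranged over 2208 to 2304 CPM with cytarabine, 1680 to 2608 CPM with daunorubicin and 1656 to 2257 CPM with the combination, against 813 to 1926 CPM with DMSO. Of 7 erythroid markers, 2 passed the filter in HL60 and 1 in MOLM13 and OCIAML3. None was up, and their sum stayed between 9.27 and 18.7 CPM in all libraries. The part of these genes in the APOBEC3 levels was not tested.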

How the data were processed

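RNA of 36 libraries was quantified by the authors, who checked reads with FastQC 0.11.9 and ran Salmon 1.8.0 against GRCh38 transcripts, per the methods and the submitters' processing notes, which also name edgeR 3.38.1. The files as deposited hold estimated counts per transcript, not normalized, and the TPM that Salmon derived from them and the effective lengths. Reads that fit several paralogs are shared out by Salmon's model, which can move counts between APOBEC3 genes, and without strand, antisense reads cannot be told apart. Of 252199 transcripts, 235378 matched GENCODE 44 and were summed per gene. The 16821 others, 3.99% to 4.52% of the counts, were left out, and 0 columns of other samples were present.

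Summed counts were rounded and fitted in edgeR 4.0.16 (R 4.3.3) by the quasi-likelihood test with TMM normalization, in one fit per line over its 12 libraries and one over the 9 DMSO libraries, after filterByExpr (minimum count 10, total 15). P-values were adjusted by Benjamini-Hochberg over all genes fitted. Transcript usage was tested with diffSpliceDGE. CPM were scaled by TMM over all 36 libraries, and fold changes come from the fits, with SE. The counting intervals cover counting error only. Alternatives included DESeq2 1.42.0. The scripts were tested on simulated data. Python 3.11.15 was used for tables (pandas 2.3.3, numpy 2.4.6) and plots (matplotlib 3.10.9).

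The APOBEC3 genes and all other gene lists were chosen with earlier results of these data known. Named beside the 7 members were transcripts with at least 20% of their gene in a group, the 3 genes most like each member fitted in all lines, and list genes past the thresholds. RPL3, APOBEC3G-207 and APOBEC3H-202 fell outside this rule and were named after their values were seen. Pairing by replicate number was checked over genes averaging 10 CPM or more: in HL60 all 18 correlations of same-numbered libraries exceeded 0.1 (0.28 to 0.56), whereas 11 of 18 did in MOLM13 and 8 of 18 in OCIAML3. The numbers thus paired the libraries throughout only in HL60. In OCIAML3 the daunorubicin and combination libraries also deviated together (0.72, 0.47 and 0.74). The main fits, also that of HL60, leave this pairing out, and values with a block are named as such.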

Additional observations from a re-analysis of the deposited data

Results flagged for a closer look

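APOBEC3B lay on opposite sides of DMSO in different lines under the same treatment, although of these values only that of HL60 with the combination was past the thresholds. Every HL60 library with treatment was above every HL60 DMSO library. With daunorubicin, all MOLM13 and all OCIAML3 libraries were below the DMSO libraries of their line, although in MOLM13 the closest libraries of both groups rounded to the same value, 14.7 CPM. The log2 fold change in HL60 exceeded that in MOLM13 by 1.72 and that in OCIAML3 by 1.28. With the combination, all OCIAML3 libraries were below DMSO too, and the log2 fold change in HL60 exceeded that in OCIAML3 by 1.84. These differences between lines were not tested.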

How the results depend on the processing

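No value past the thresholds changed sign under any alternative run. Values short of them did, for example with cytarabine against DMSO in OCIAML3, where APOBEC3B was 0.14 and APOBEC3D −0.50 without the 2 libraries, and −0.06 and 0.29 with all. The values below are numbers of members past the thresholds. The number of all genes past them can change with the alternative too, so nothing is read from a gain or loss of members. In HL60, daunorubicin against DMSO gave 2, but 1 with a stricter filter and 4 without the fold threshold. Without that threshold, 1994 of all 15608 genes were up and 1426 down, beside 1055 and 84 with it. Cytarabine against DMSO gave 4 there, but 3 with the stricter filter and 3 with all 36 libraries in one fit. The combination against DMSO gave 4 there, but 3 with the stricter filter, 5 without the filter and 5 with all 36 libraries in one fit. Daunorubicin against cytarabine gave 0 in HL60, but 1 without the filter and 1 without the fold threshold. Without that threshold, 1345 of all genes were up and 1228 down, beside 95 and 512 with it. The combination against daunorubicin gave 2 in HL60, but 1 without the filter and 0 with transcript lengths as offset. It gave 3 each with the newer quasi-likelihood method, with all 36 libraries in one fit and without the fold threshold. Without that threshold, 2506 of all genes were up and 2643 down, beside 1038 and 435 with it. In MOLM13, cytarabine against DMSO gave 4, but 3 with transcript lengths as offset. The combination against DMSO gave 4, but 3 each with RLE normalization, without the filter, in DESeq2 and with all 36 libraries in one fit. In the same line, daunorubicin against cytarabine gave 1, but 2 without the filter and 2 with all 36 libraries in one fit, and the combination against cytarabine gave 0, but 1 without the filter, 1 with the newer quasi-likelihood method and 1 with all 36 libraries. In OCIAML3 all comparisons gave 0, but daunorubicin against DMSO gave 3 in DESeq2, 2 with all 36 libraries in one fit and 4 without the 2 libraries that stood apart. Without these, the combination against DMSO also gave 4, daunorubicin against cytarabine 2 and the combination against cytarabine 4. Between untreated lines, MOLM13 against HL60 gave 5, but 4 with the stricter filter and 4 with all 36 libraries in one fit. OCIAML3 against HL60 gave 4, but 5 without the fold threshold. Without that threshold, 6522 of all 16532 genes were up and 5359 down, beside 4265 and 2067 with it. MOLM13 against OCIAML3 gave 4, but 3 with transcript lengths as offset and 5 without the fold threshold. Without that threshold, 5197 of all genes were up and 5431 down, beside 2166 and 2935 with it.

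Leaving out 1 library at a time gave 2 to 4 for cytarabine against DMSO in MOLM13, 0 to 4 for daunorubicin and 0 to 3 for the combination against DMSO in OCIAML3, where the 4 and the 3 came without the combination replicate 3. It gave 0 to 2 for the combination against daunorubicin in HL60, and in MOLM13 0 to 2 for daunorubicin and 0 to 1 for the combination against cytarabine. Against DMSO it gave 3 to 4 for cytarabine in HL60 and 3 to 4 for the combination in MOLM13. For untreated MOLM13 against HL60 it gave 4 to 5. With the replicate number as a block, which the pairing check bears out throughout only in HL60, daunorubicin against cytarabine in HL60 gave 1 in place of 0 (APOBEC3G), and no other number of members past the thresholds changed. The cause of these changes was not tested. Depth limits APOBEC3D (at most 113 counts in any library) and APOBEC3F, APOBEC3G and APOBEC3H in HL60, where DMSO libraries held no or few counts. It also limits APOBEC3F in MOLM13, where the DMSO libraries held at most 8 counts, and APOBEC3A, whose 4 counts in all allow no comparison.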
